A study of Mus musculus with 6 samples.

Results

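The genes described here are 6 Wnt ligands of the mouse (Wnt3, Wnt4, Wnt5a, Wnt6, Wnt9b and Wnt11) and the secretion genes Wls and Porcn, read on Affymetrix Mouse Genome 430 2.0 arrays in colon epithelium. Every probe set that the array annotation assigns to exactly 1 of these 8 symbols was taken, which gave 17 of the 45101 probe sets on the array and 8 of the 18193 genes with such probe sets. A probe set is a small group of short probes that together read a transcript. Wls and Wnt5a have 4 probe sets each, Wnt4, Wnt6 and Wnt9b have 2 each, and Wnt3, Wnt11 and Porcn have 1 each, so that probe sets of a gene share a target and are not independent readings.

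The knockout group is vil-Cre-Bcl9-/-/Bcl9l-/- mice, in which a Cre recombinase under the villin promoter acts in the intestinal epithelium, and the other group is wildtype mice. Both groups were 12-week old, of mixed 129SvEv/C57BL/6/DBA/2 background, and labelled as healthy colon. Epithelium came off the muscle in EDTA and was pelleted unsorted. Each of the 6 arrays read a pool of mice, with 3, 2 and 2 mice in knockout arrays 1, 2 and 3, and 3 mice in each of wild-type arrays 4, 5 and 6. The labels name vil-Cre for the knockouts only, so loss of the co-activators cannot be told apart from Cre itself, and no single knockout was among the samples.

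Wnt proteins are secreted, lipid-modified signals. Porcupine, encoded by Porcn, is an acyltransferase of the endoplasmic reticulum that attaches palmitoleate to them, and Wntless, encoded by Wls, is the membrane protein that binds the acylated ligand and carries it to the cell surface. The ligand then binds Frizzled and LRP receptors on a neighbouring cell, beta-catenin accumulates there, and BCL9 and BCL9L link beta-catenin to Pygopus on target genes that TCF factors mark. In the mouse gut, Wnt ligands come from epithelial cells, such as the Paneth cells of the small intestine that make Wnt3, and from fibroblasts below the epithelium, which make Wnt5a among others. The comparison addresses whether the genes that make and export the ligand differ when the co-activators at the far end of the pathway are lost.

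The start-site regions of Wls and Wnt11 are shown because Wls had the widest difference among these genes and because the Wnt11 region alone among them holds a longer TCF-type match. They are the RefSeq sequences of build GRCm38.p6, 250 bases before to 50 bases after the start, 5′ to 3′ on the + strand, for Wls at chr3:159839400-159839699 and for the upstream of 2 Wnt11 entries at chr7:98834862-98835161. Capitals mark CTTTG or its reverse complement CAAAG, the core of the motif that TCF factors bind, and in Wnt11 also the 2 preceding bases that complete ATCAAAG.
Wls: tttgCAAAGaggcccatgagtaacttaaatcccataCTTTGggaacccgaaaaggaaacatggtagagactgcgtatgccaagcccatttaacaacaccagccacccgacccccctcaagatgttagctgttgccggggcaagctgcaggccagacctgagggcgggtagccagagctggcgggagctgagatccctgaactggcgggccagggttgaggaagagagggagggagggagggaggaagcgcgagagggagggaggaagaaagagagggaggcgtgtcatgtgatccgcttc
Wnt11: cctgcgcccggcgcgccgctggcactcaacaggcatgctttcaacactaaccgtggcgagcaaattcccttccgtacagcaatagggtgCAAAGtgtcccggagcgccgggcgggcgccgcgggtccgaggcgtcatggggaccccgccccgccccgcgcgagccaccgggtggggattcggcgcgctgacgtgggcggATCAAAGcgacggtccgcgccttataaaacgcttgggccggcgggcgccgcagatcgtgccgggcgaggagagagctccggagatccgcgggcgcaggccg
Each window held 2 matches to the core, searched on both strands, where 53.9% of the 32851 promoter windows in the table held at least 1. The longer ATCAAAG, which contains the core, was in 3.73% of windows. RefSeq windows were matched for 6 of the 8 genes, 7 windows in all, and 4 of these held the core, those of Wls, Wnt3, Wnt9b and 1 of the Wnt11 entries. Wnt5a and Porcn were not matched. G and C made up 58.0% of the Wls window and 71.3% of the Wnt11 window. These matches describe letters, not binding sites.

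Values throughout are log2 expression as deposited. A positive difference means higher in the knockouts, and its standard error (SE) is limma's. All p-values come from the limma fit over the 45037 probe sets left after 64 control probe sets were set aside, and a probe set was called at an adjusted p under 0.05. The arrays correlated with each other at 0.975 to 0.990. Wild-type array 6 stood apart on the leading principal component, which held 40.2% of the variance, at 82.5 against -34.4 to 9.54 in the other 5 arrays. All 12 epithelial markers, Epcam, Cdh1 and Vil1 among them, read above the median of every array (medians 5.44 to 5.58), as did 5 of 22 markers of fibroblasts and subepithelial mesenchyme. The targeted genes read within the spread between pools, with differences of -0.04 and 0.11 in the Bcl9 probe sets and -0.20 to 0.22 in the 3 Bcl9l probe sets. The sources used here do not place these probes inside or outside the deleted part, so the values do not check the labels.

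None of the 17 probe sets passed the test: limma called 0 of them (smallest adjusted p = 0.991), and 0 of all 45037 probe sets, a background of 0% (smallest adjusted p = 0.326). Without wild type 6 limma called 3 of all probe sets and 0 of the 17. An unadjusted p under 0.05 was found for 2 of 17, both of Wls and both higher in the knockouts, where 4.15% of all probe sets lay under that threshold, 2.29% with the knockouts higher and 1.85% with the knockouts lower. Values of the 2 genotypes were fully apart in 3 of 17 probe sets, against 9.69% of all probe sets. Of these, 2 were the same Wls probe sets with the knockouts higher (background 4.93%), and 1 was a Wnt9b probe set with the knockouts lower (background 4.76%). Both Wls probe sets read above the median of every array, where more probe sets were higher in the knockouts. Of all 20125 probe sets that bright, 1468 had the knockouts higher without overlap. At an unadjusted limma p under 0.05, 676 of the 20125 had the knockouts higher and 202 had them lower. Of the 17 differences 8 lay above 0 and 9 below, with a median of -0.052, and the median over all probe sets was 0.0018. Among the 13 probe sets of the 7 genes other than Wls, 4 lay above 0 and 9 below, where 49.6% of all probe sets lay below 0. Of the 13, 6 lay below the median of every array and 2 above it. Over all probe sets that dim 58.8% lay below 0, and over all that bright 39.0%.

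**Figure D1:**
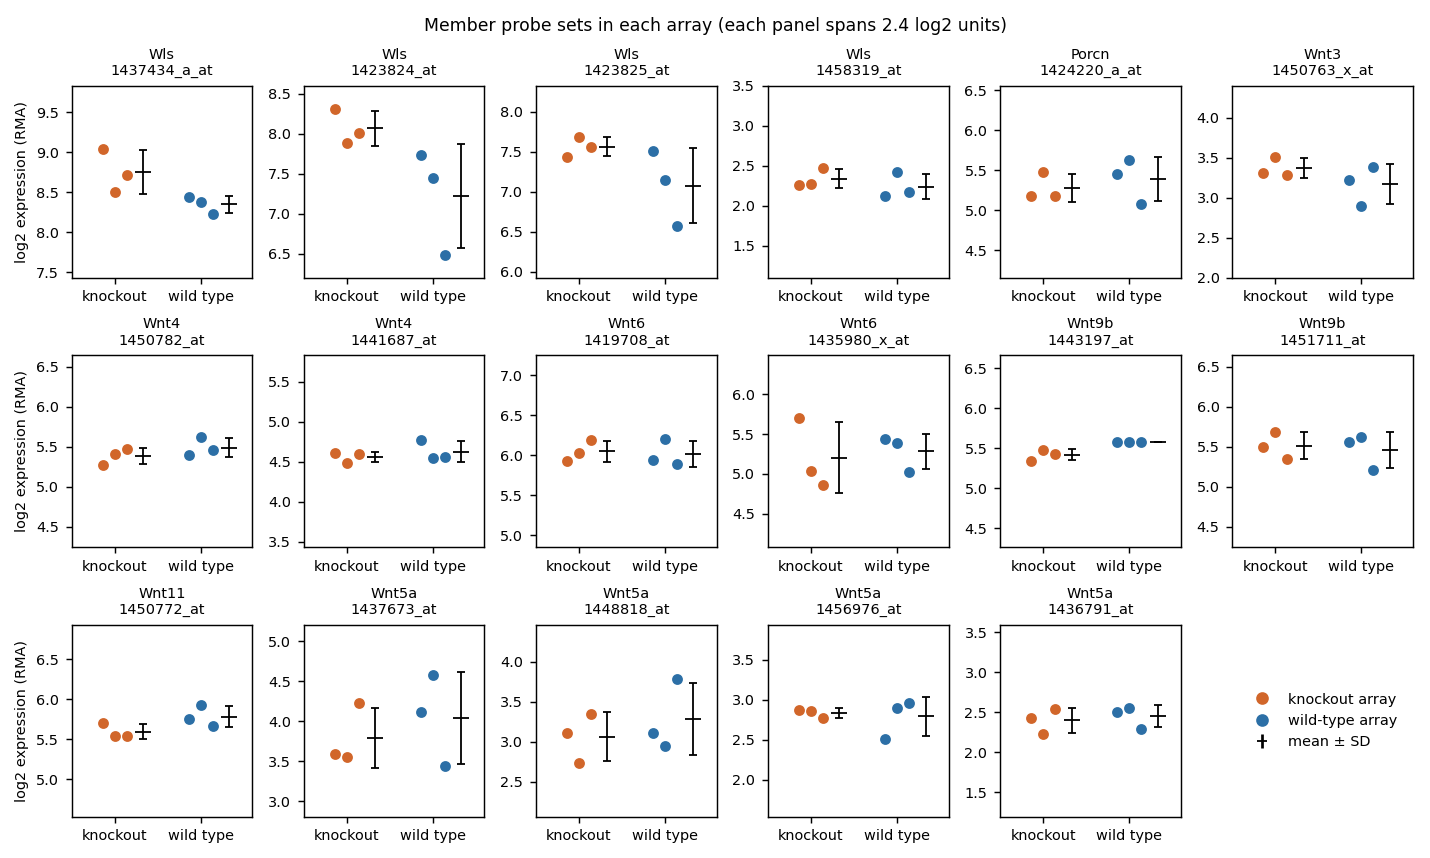
Log2 expression (RMA) of each of the 17 probe sets in the 3 knockout arrays (orange, left) and the 3 wild-type arrays (blue, right), with the mean and SD of each group in black. Every panel spans the same number of log2 units, and the Wls probe sets 1437434_a_at and 1423824_at are the panels in which all knockout points lie above all wild-type points.

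Wls, the carrier of acylated Wnt proteins, read higher in the knockout arrays in its 3 brighter probe sets, though without passing the test. Probe set 1423824_at read 8.32, 7.89 and 8.01 in knockouts 1, 2 and 3, against 7.73, 7.45 and 6.49 in wild types 4, 5 and 6. The lowest knockout lay above the highest wild type, and wild type 6 lay furthest down. Knockouts averaged 8.07 ± 0.22 and wild types 7.22 ± 0.65 (SD, n = 3 arrays each), which is a difference of 0.85 (SE 0.32, 95% interval 0.08 to 1.61), or 1.80-fold (interval 1.06 to 3.06), with an unadjusted p of 0.0348 and a limma adjusted p of 0.991. The SD of this probe set over the 6 arrays, 0.64, was at the 95.95th percentile of all probe sets.

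Probe set 1437434_a_at of Wls read 9.04, 8.50 and 8.71 in the knockouts, against 8.44, 8.38 and 8.22 in wild type. The groups again did not overlap, but knockout 2 and wild type 4 were close together. The difference was 0.41 (SE 0.16, 95% interval 0.01 to 0.80), 1.32-fold, with an unadjusted p of 0.0441 and a limma adjusted p of 0.991. Probe set 1423825_at read 7.44, 7.68 and 7.56 in the knockouts, against 7.50, 7.15 and 6.57 in wild type. Here knockout 1 fell below wild type 4, so the groups overlapped, and the difference was 0.49 (SE 0.24, 95% interval -0.08 to 1.05, limma adjusted p = 0.991). Wild type 6 was the lowest of the 6 arrays in each of these 3 probe sets.

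The remaining Wls probe set, 1458319_at, read 2.27, 2.27 and 2.48 in the knockouts and 2.13, 2.42 and 2.17 in wild type. Its 6-array mean was at the 0.988th percentile of the array, and its groups overlapped, with a difference of 0.10 (95% interval -0.22 to 0.41). No detection call was used, so this reading and the other dim ones below are not shown to be above background.

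**Figure D2:**
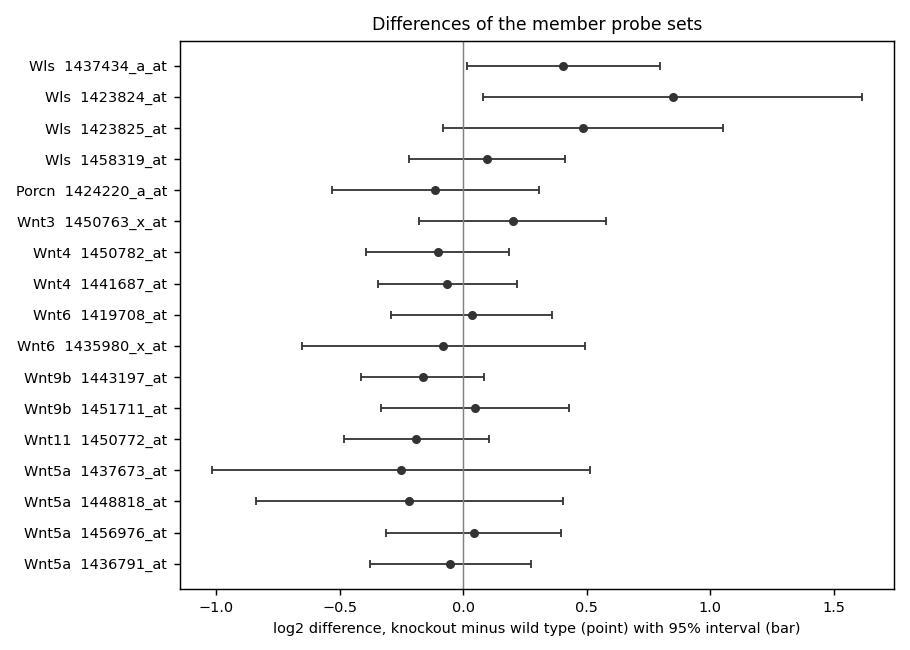
Difference between knockout and wild type for each of the 17 probe sets (points, log2 scale) with limma's unadjusted 95% interval (bars). The intervals of the Wls probe sets 1437434_a_at and 1423824_at lie above 0, and the other 15 include 0.

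The size of the Wls difference rested in part on wild type 6. Without that array the differences were 0.48 for 1423824_at, 0.34 for 1437434_a_at and 0.23 for 1423825_at, against 0.85, 0.41 and 0.49 with all 6 arrays, and the limma adjusted p ran from 0.852 to 0.892. Leaving out any other array kept all 3 above 0, and over the 6 arrays left out in turn the differences ran from 0.48 to 1.10, from 0.26 to 0.53 and from 0.23 to 0.70 in that order of probe sets. Knockout 1, the highest array in 1437434_a_at, carried part of that probe set's difference, which was 0.26 without it. The count of the 17 probe sets at an unadjusted p under 0.05 was 1 without knockout 2, wild type 5 or wild type 6, and 0 without knockout 1 or knockout 3. The pools differ in size only among the knockouts. With pool size entered as a covariate, the differences were 1.09, 0.69 and 0.36 in the same order. That fit in effect leaves knockout 1 as the only array compared with wild type. With array weights, which gave wild type 6 the lowest weight (0.50), the differences were 0.63, 0.36 and 0.34. After cyclic loess normalization they were 0.78, 0.34 and 0.42.

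**Figure D3:**
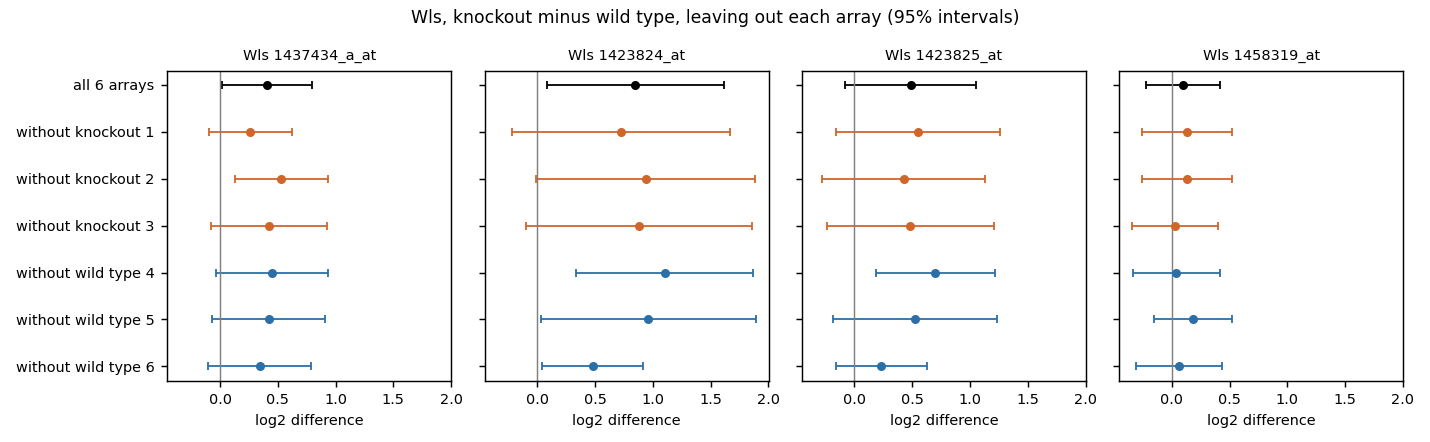
Wls difference, knockout minus wild type, in each of its 4 probe sets with all 6 arrays (black) and with each knockout (orange) or wild-type (blue) array left out; points are log2 differences and bars limma's 95% intervals. All points lie above 0, and the differences of 1423824_at and 1423825_at are at their smallest without wild type 6.

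Markers of other cell types moved with the same array. The B and plasma cell markers, of which 12 of 13 were measured, had a level (the median over markers, relative to the 6-array mean) of 2.21 in wild type 6 and of -0.70 to -0.12 in the other 5 arrays. Ms4a1, the B cell gene that encodes CD20, read 3.99, 3.87 and 3.65 in the knockouts, against 4.13, 3.66 and 8.55 in wild type. Blnk was the brightest of these markers in every array but wild type 6. It read 9.27, 9.60 and 9.41 in the knockouts, against 8.91, 9.15 and 9.32 in wild type. The B cell markers' summed signal, which outside wild type 6 rests heavily on Blnk, was put on the log2 scale. It ran from 10.04 to 10.46 in knockout arrays, against 9.97 to 12.3 in wild-type arrays. Wild type 6 therefore combined the lowest values of the 3 brighter Wls probe sets with the highest B cell signal.

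Of the 22 fibroblast and mesenchyme markers, 20 lay below 0, with a summed signal between 9.93 and 10.5 in knockout arrays, against 10.4 and 11.5 in wild-type arrays, and a median difference of -0.19. The T cell markers lay below 0 in 12 of 12 (median -0.61) and the B cell markers in 11 of 12 (median -1.15). Both rested largely on wild type 6, without which 9 of 12 T cell markers (median -0.29) and 9 of 12 B cell markers (median -0.22) lay below 0, as did 16 of the 22 fibroblast and mesenchyme markers (median -0.14). Without knockout 2, 16 of the 22 fibroblast and mesenchyme markers lay below 0 too (median -0.2). None of the markers in these lists was at 0, and 0 of them passed the test. The epithelial markers' summed signal was alike, between 16.45 and 16.51 in knockout arrays and between 16.47 and 16.49 in wild-type arrays, with a median difference of 0.02. The part of these cell types in the Wls values was not tested. In bulk epithelium fewer cells of a type and less RNA per cell cannot be told apart.

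**Figure D4:**
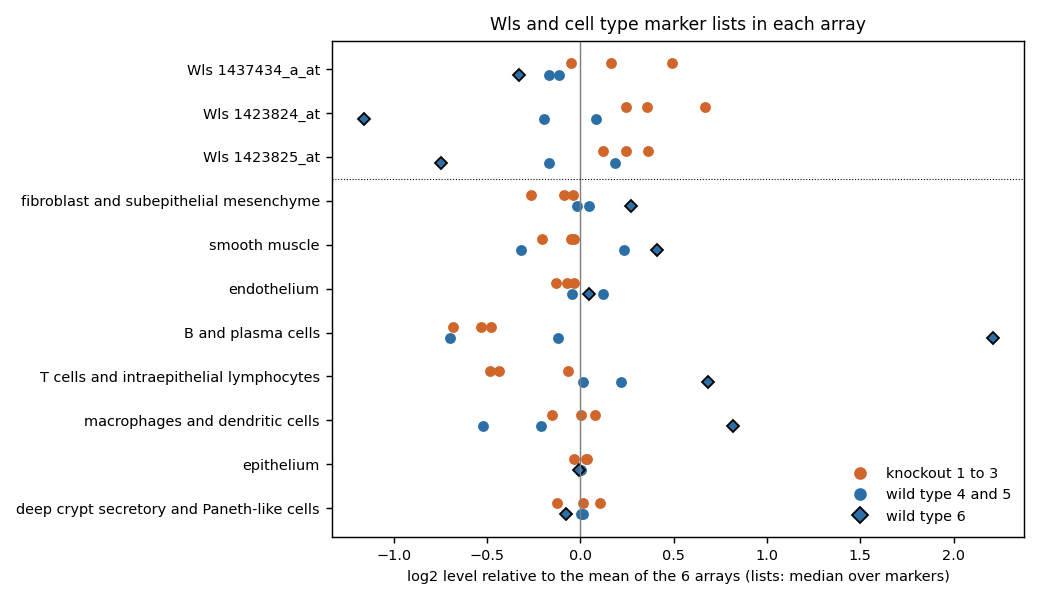
Log2 level in each array relative to the mean of the 6 arrays for the 3 brighter Wls probe sets (top) and for 8 cell type marker lists (median over markers), with knockouts in orange, wild types 4 and 5 as blue circles and wild type 6 as a blue diamond. Wild type 6 is lowest in the 3 Wls probe sets and highest in the B and plasma cell, T cell, macrophage, fibroblast and smooth muscle lists.

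Porcn, the acyltransferase that acts before Wls, read 5.18, 5.47 and 5.17 in the knockouts, against 5.45, 5.63 and 5.08 in wild type. The groups overlapped, with the lowest array again wild type 6. The difference was -0.11 (SE 0.18, 95% interval -0.53 to 0.31, limma adjusted p = 0.991), and the interval spans 0.692-fold to 1.24-fold. It was 0.0084 without wild type 5 and -0.27 without wild type 6, so its sign rested on wild type 5. Porcn and Wls act on the same ligands in turn, but their difference from each other was not tested.

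Among the ligands, Wnt3, which Paneth cells of the mouse small intestine make, read 3.31, 3.51 and 3.28 in the knockouts, against 3.22, 2.89 and 3.38 in wild type. The groups overlapped, wild type 5 lying lowest, and the difference of 0.20 (SE 0.16, 95% interval -0.18 to 0.58) was 0.06 without that array. Its probe set, 1450763_x_at, and the Wnt6 probe set 1435980_x_at carry the suffix that Affymetrix gives to probes shared with other transcripts, so these readings may include related genes. All 6 values lay below the median of their array.

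Wnt9b, a ligand known in the mouse for its part in kidney tubule formation, gave different pictures in its probe sets. Probe set 1443197_at read 5.34, 5.48 and 5.44 in the knockouts and 5.58 in each of the 3 wild-type arrays. All knockouts lay below wild type, and the 3 wild-type values were identical in every deposited digit. At least 3 identical values occurred in 66 of the 45037 probe sets. With a wild-type SD of 0 here, the SE rests on the knockouts and on limma's pooling of variance over all probe sets. The difference was -0.16 (SE 0.10, 95% interval -0.41 to 0.08, limma adjusted p = 0.991). Probe set 1451711_at read 5.50, 5.68 and 5.34 in the knockouts, against 5.56, 5.62 and 5.20 in wild type, with overlapping groups and a difference of 0.05, which was -0.080 without wild type 6 and -0.038 without knockout 2.

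Wnt11, which in other tissues acts mostly without beta-catenin, read 5.70, 5.54 and 5.54 in the knockouts, against 5.76, 5.93 and 5.67 in wild type. Only knockout 1 overlapped the wild-type range, by lying above wild type 6. The difference was -0.19 (SE 0.12, 95% interval -0.48 to 0.10, limma adjusted p = 0.991), or 0.877-fold.

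Wnt4, a ligand of kidney and reproductive tract development, varied little between arrays. Probe set 1450782_at read 5.27, 5.41 and 5.47 in the knockouts, against 5.39, 5.61 and 5.46 in wild type, and 1441687_at read 4.61, 4.49 and 4.59 against 4.77, 4.55 and 4.56. Both overlapped, with differences of -0.10 (95% interval -0.39 to 0.19) and -0.06 (95% interval -0.35 to 0.22). Their SDs over the 6 arrays, 0.11 and 0.10, were at the 14.7th and 9.42th percentiles of all probe sets.

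Wnt6, a ligand of epithelia, overlapped between genotypes in both probe sets. Probe set 1419708_at read 5.93, 6.03 and 6.19 in the knockouts, against 5.94, 6.21 and 5.90 in wild type, and differed by 0.03 (95% interval -0.29 to 0.36), or by -0.035 without knockout 3. Probe set 1435980_x_at read 5.70, 5.04 and 4.87 in the knockouts, against 5.43, 5.38 and 5.03 in wild type. Knockout 1 stood above the other knockouts there, and the difference of -0.08 (95% interval -0.65 to 0.49) was -0.33 without it and 0.088 without knockout 3.

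Wnt5a, a ligand of the subepithelial fibroblasts that acts mostly without beta-catenin, was dim in all 4 probe sets, each of which lay below the median of every array. Probe set 1437673_at read 3.59, 3.56 and 4.23 in the knockouts, against 4.11, 4.58 and 3.44 in wild type. Probe set 1448818_at read 3.11, 2.74 and 3.35 in the knockouts, against 3.11, 2.95 and 3.79 in wild type. The groups overlapped in both, and wild type 6 was the lowest of the 6 arrays in the first and the highest in the second, so the probe sets of this gene did not order the arrays alike. The differences were -0.25 (95% interval -1.02 to 0.51) and -0.22 (95% interval -0.84 to 0.41), and without wild type 6 they were -0.55 and 0.04. Without wild type 5 they were 0.017 and -0.39, so leaving out 1 array turned the sign of each. Probe sets 1456976_at and 1436791_at differed by 0.04 and -0.05 and read between 2.23 and 2.96 in all 6 arrays. The fibroblast markers were lower in the knockouts in 20 of 22, and in 16 of 22 without wild type 6 or without knockout 2. Of the 22, 11 lay below the median of every array, and 58.8% of all probe sets that dim lay below 0. These markers include Foxl1 (-0.10) and Pdgfra (-0.04) of the cells that border the epithelium, both dim as well. The part of the fibroblast markers in the Wnt5a values was not tested.

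Over the 13 probe sets other than those of Wls, the 95% intervals reached down to 0.494-fold (Wnt5a, 1437673_at) and up to 1.495-fold (Wnt3). With 3 arrays a group, differences of up to those sizes remain within the intervals, and the tests do not show that these ligands were equal between the genotypes.

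The 13 other Wnt ligands of the mouse were all on the array, with 20 probe sets. Of these, 0 passed in either direction (limma, smallest adjusted p = 0.991) and 0 had an unadjusted p under 0.05, against 4.15% of all probe sets. They lay below 0 in 16 of 20 and above in 4, with a median difference of -0.16. They were mostly dim, 16 of 20 lying below the median of every array, and over all 19870 probe sets that dim the median difference was -0.035 and 58.8% lay below 0. Without wild type 6 the median of the 20 was -0.20, and without knockout 2 it was -0.07.

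The ligands with the smallest unadjusted p in that list were Wnt16, Wnt9a and Wnt10a. Wnt16 read 3.88, 3.89 and 3.94 in the knockouts, against 4.09, 4.14 and 4.14 in wild type, without overlap, a difference of -0.22 (SE 0.10, unadjusted p = 0.0698). Wnt9a (1436978_at) differed by -0.28 (SE 0.13), with overlap, and Wnt10a by -0.27 (SE 0.13), without overlap. In all, 3 of 20 probe sets had knockouts below wild type without overlap (background 4.76%) and 0 had them above (background 4.93%). Wnt16 and Wnt10a were dim, and of the 19870 probe sets that dim 1303 had knockouts lower without overlap. The remaining probe set, Wnt7a 1423367_at, was named after its values were seen and read above the median of every array. Of the 20125 probe sets that bright, 556 had knockouts lower without overlap. Wnt8b, named after its values were seen, had the widest difference, 0.78 in 1441316_at (SE 0.55), from readings of 6.58, 5.23 and 4.19 in the knockouts against 4.42, 4.72 and 4.52 in wild type, so that knockout 3 lay below every wild type.

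A list of 16 genes that handle the ligand covered p24 cargo receptors (Tmed2, Tmed5, Tmed10), the retromer that returns Wntless from endosomes and its sorting nexin (Vps26a, Vps26b, Vps29, Vps35, Snx3), the desaturases that make palmitoleate (Scd1, Scd2), the enzymes that inactivate secreted ligand (Notum, Trabd2b) and glypicans (Gpc1, Gpc3, Gpc4, Gpc6). All 16 were measured, in 36 probe sets, and 0 passed in either direction (limma, smallest adjusted p = 0.991), with 0 at an unadjusted p under 0.05, against 4.15% of all probe sets. The differences lay above 0 in 24 and below in 12, with a median of 0.12, which was 0.054 without knockout 3. In this list 23 of 36 were above the median of every array, and over all 20125 probe sets that bright the median difference was 0.044, with 39.0% below 0.

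The smallest unadjusted p in the list belonged to Gpc1, a glypican of the cell surface, which read 4.99, 4.78 and 5.03 in the knockouts, against 5.18, 5.18 and 5.15 in wild type. The groups did not overlap, and the difference was -0.24 (SE 0.12, unadjusted p = 0.0821). Wild types 4 and 5 both read 5.1822. Among the 36 probe sets, 1 had the knockouts lower without overlap, that of Gpc1, and 0 had them higher, against 9.69% of all probe sets in either direction. Gpc6 (1419689_at) differed by 0.21 (SE 0.13). Scd1 (1415964_at) differed by 0.70 (SE 0.42), with 9.88, 9.91 and 10.3 in the knockouts against 9.12, 8.51 and 10.3 in wild type, wild type 6 lying highest of all.

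**Figure D5:**
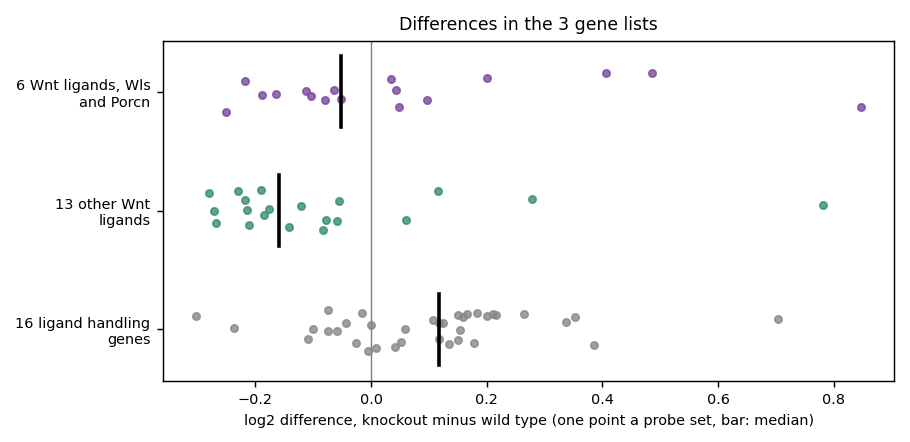
Log2 difference, knockout minus wild type, of every probe set (points) of the 6 Wnt ligands with Wls and Porcn, of the 13 other Wnt ligands and of the 16 ligand handling genes; black bars are medians (-0.052, -0.16 and 0.12). The 3 points at the far right of the top list are Wls probe sets.

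For each of the 8 genes, represented by its brightest probe set, the 2 genes most like it across the 6 arrays were taken from 3572 genes with an SD of at least 0.3. The pattern of Wls was closest to Alg12, a mannosyltransferase of protein glycosylation in the endoplasmic reticulum (Pearson r = 0.980, difference 0.42), and Unc13d, which acts in granule release (r = 0.972, difference 0.56). Over these 6 arrays 67 of the 3572 genes correlated with Wls above 0.9. Wnt11 was closest to Edn2 (r = 0.984) and Rad52 (r = 0.980), with 62 genes above 0.9. The closest genes were Igfbp5 for Wnt4 (r = 0.985), Zfp846 for Wnt5a (r = 0.980), Ncoa3 for Wnt3 (r = 0.989), Mtx1 for Wnt6 (r = 0.976), Glra4 for Wnt9b (r = 0.980) and Kazald1 for Porcn (r = 0.989). The genes other than Wls and Wnt11 had 19 to 25 genes above 0.9. The SD floor was not applied to the 8 genes themselves, of which only Wnt5a (0.46) reached it. The SD was 0.29 for Wls and as low as 0.10 for Wnt9b, so high correlations here include genes that varied little. These correlations are descriptions of 6 arrays and carry no test.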

How the data were processed

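The authors deposited log2 expression values from RMA, per the submitters' processing notes. RMA corrects for background, quantile-normalizes across arrays and summarises the probes of a set. The sources used here give no RMA version, and that the scale is log2 was judged from the range of the values. Per the labels' protocols, EDTA at 3 mM with 0.05 mM DTT loosened the epithelium within 1.5 to 2 hours, and 30 ng of pooled RNA was amplified (NuGEN WT-Ovation pico), so dim transcripts may be read unevenly. Scanner files and detection calls were not used here.

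The array annotation gave 1 symbol to 34945 tested probe sets, several to 932 and none to 9160. All 17 probe sets matched RefSeq (GRCm38.p6) by gene number, with 17 symbols unchanged. No genome build is named for the values, so no probe coordinates are given.

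Knockout (n = 3) was compared with wild type (n = 3) with limma 3.58.1 in R 4.3.3 (lmFit, eBayes, two-sided, no covariate, no filter), Benjamini-Hochberg adjusted over 45037 probe sets at 0.05. The fit was tested on 10 simulated data sets with 200 changed probe sets each. It recovered 32.8% of the 2-fold and 76.9% of the 4-fold changes, and 5.35% of its calls were false. In that setting most 2-fold changes were missed. Each array is a separate pool, so p-values measure the spread between pools, and 3 arrays a group limit the precision. The genes, lists and settings were chosen with earlier results of these data known. Named genes were every probe set of the 8 genes, the 3 smallest unadjusted p of each further list, the 2 genes most like each of the 8, and genes whose value was needed beside one of them. Marker lists used the brightest probe set of each gene; their other lists, smooth muscle, endothelium, macrophages and dendritic cells, and deep crypt secretory cells, had median differences of -0.18, -0.18, 0.09 and 0.02. Leaving out each array in turn for the marker lists was added after seeing the data. In the same order these medians then ran from -0.38 to -0.082, from -0.23 to -0.15, from -0.18 to 0.34 and from -0.036 to 0.096. Alternatives are given at the end.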

Additional observations from a re-analysis of the deposited data

How the results depend on the processing

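Under 15 alternatives (cyclic loess, brighter probe sets only, single-symbol probe sets, without _x_at and _s_at probe sets, the brightest or the mean probe set of a gene, a robust fit with an intensity trend, array weights, number of mice, and each array left out) limma called 0 of the 17 probe sets, 0 of the other Wnt ligands, 0 ligand handling genes and 0 of the Bcl9 and Bcl9l probe sets. The median difference of the 17, -0.052, was -0.080 to 0.017 without 1 array. It was 0.22 among the 6 brighter probe sets, which include Wls 1437434_a_at, 1423824_at and 1423825_at at 0.41, 0.85 and 0.49. The rest of the 6 were Wnt11 at -0.19, Wnt6 1419708_at at 0.035 and Wnt9b 1443197_at at -0.16. The count at an unadjusted p under 0.05, added after seeing the data with its alternatives, was 2 with all arrays, and 1 with cyclic loess, the brightest probe set, the mean of probe sets, array weights or number of mice, and 0 to 2 without 1 array. Settings that only drop probe sets, and the robust fit with an intensity trend, leave each difference as it was. Values under those settings could not change sign, and the counts that follow include them. Of 224 single values 206 kept their sign and 18 changed it, all near 0 except Wnt6 1435980_x_at at 0.42 with number of mice. The others outside the left-out arrays were Wnt6 1419708_at at -0.023 with the mean of its probe sets and -0.087 with number of mice, and Wnt9b 1451711_at at -0.044 with array weights. Leaving out 1 array, values ran from -0.27 to 0.0084 for Porcn, -0.10 to 0.0095 for Wnt4 1441687_at, -0.55 to 0.017, -0.39 to 0.037, -0.096 to 0.13 and -0.13 to 0.034 for Wnt5a 1437673_at, 1448818_at, 1456976_at and 1436791_at, -0.035 to 0.13 and -0.33 to 0.088 for Wnt6 1419708_at and 1435980_x_at, and -0.080 to 0.13 for Wnt9b 1451711_at. The causes were not tested. No paired analysis was possible because the groups share no replicate number. The number of arrays and the missing detection calls limit what dim probe sets can show.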
